A study of Mus musculus with 6 samples.

Results

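Neurexins, neuroligins and leucine-rich repeat transmembrane neuronal proteins (LRRTMs) join the 2 sides of a synapse. Here 8 of their genes, *Nrxn2*, *Nrxn3*, *Nlgn1*, *Nlgn3*, *Lrrtm1*, *Lrrtm2*, *Lrrtm3* and *Lrrtm4*, were followed in the medial prefrontal cortex (mPFC) of *Shank3* transgenic (TG) and wild-type (WT) mice. They were chosen by symbol from the 18254 genes of the deposited table, with no threshold on their values, and all 8 passed the filter on low values. *Shank3* TG mice carry an enhanced green fluorescent protein (EGFP)-*Shank3* transgene in addition to their own *Shank3*, and the WT mice were their littermates. The promoter of the transgene is not given in the sources used here. All mice were males of a C57BL/6J background, 10 to 12 weeks old. Each genotype had 3 RNA libraries (named TG or WT with the replicate number, as in TG-1), and each library held the pooled mPFC tissue of 2 mice, which makes n a count of pools and not of single animals. The question asked of the 8 genes was whether their mRNA levels differ when *Shank3*, a scaffold gene of the excitatory synapse, is overexpressed.

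Neurexins sit mainly on the axon terminal, where alternative promoters give long alpha and short beta forms. Neuroligins and LRRTMs sit on the dendrite and bind neurexins across the cleft. Neuroligin-1 is found mostly at excitatory synapses and neuroligin-3 at both excitatory and inhibitory synapses, whereas LRRTMs organize excitatory synapses. The intracellular ends of neurexins and neuroligins bind scaffolds with PDZ domains, on the axon side CASK and on the dendrite side PSD-95, through which neuroligins are linked to SAPAP and Shank proteins. The gene-level values used here add up all transcripts of a gene, so alpha and beta neurexins and the splice forms that set partner choice were not separated.

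The coding ends of 7 members, all but *Lrrtm2*, were read from the GENCODE release M21 transcripts (GRCm38) and are shown because the C termini of neurexins and neuroligins meet synaptic scaffolds. Each run is the last 27 coding bases before the stop codon, 5′ to 3′ on the gene's strand, with the final 12 bases in capitals, where the PDZ-binding stretch of neurexins and neuroligins is encoded. The LRRTM ends are set beside them for comparison only, and whether they too bind PDZ domains was not examined.
Nrxn2: aagaacaaagacaaaGAGTATTACGTC
Nrxn3: aaaaacaaggacaagGAGTATTATGTG
Nlgn1: ccccattcacattcaACAACCAGGGTA
Nlgn3: ccccactcacactccACTACCCGTGTA
Lrrtm1: cagcagcctgcgaggGAATGCGAGGTG
Lrrtm3: atcagtgaccataaaCCACAGCTGGCC
Lrrtm4, shorter form: atctctggctccaggGAGTGTGAGGTA
Lrrtm4, longer form: gccatttatctggagAGAATAACAAAC
These coding ends lie on chromosome 19 from 6532119 to 6532145 (*Nrxn2*, plus strand), chromosome 12 from 90332381 to 90332407 (*Nrxn3*, plus), chromosome 3 from 25433641 to 25433667 (*Nlgn1*, minus), chromosome X from 101320233 to 101320259 (*Nlgn3*, plus), chromosome 6 from 77245101 to 77245127 (*Lrrtm1*, plus) and chromosome 10 from 63930061 to 63930087 (*Lrrtm3*, minus). The ends of *Lrrtm4* lie on the plus strand of chromosome 6, from 80023137 to 80023163 and from 80809160 to 80809186, and each is carried by 3 annotated transcripts, with coding sequences of up to 1560 and 1776 bases. The end shown for *Nrxn2* is that of 7 transcripts, and 1 further transcript ends elsewhere. The gene-level values do not say which of these forms was expressed.

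*Shank3* was read first as a check of the labels, and its gene-level values do not separate the transgene from the mouse's own gene. *Shank3* (ENSMUSG00000022623) had 17470, 19003 and 16310 normalized read counts in TG-1, TG-2 and TG-3 and 8374, 8173 and 6791 in WT-1, WT-2 and WT-3. The genotypes were far apart, at a log2 fold change of 1.18 (standard error 0.10), with limma's adjusted p at 0.0643, or at 0.000437 once replicate number entered the fit as a block. Library totals lay between 28363967 and 29447717 normalized counts. The libraries TG-3 and WT-3 stood apart from the other 4, since both lay above or both below all of them for 40.9% of the 16714 tested genes. Marker lists were summed to describe the labelled tissue, with no reference tissue beside it. Sums of different lists depend on the genes in them, so they do not check the tissue. The excitatory neuron list, with *Camk2a* as its most abundant gene, summed to between 155908 and 188092 normalized counts per library. The inhibitory list (*Gad1*) summed to between 19428 and 20133 and the astrocyte list (*Slc1a3*) to between 25858 and 30274, while striatal projection neuron markers (*Ppp1r1b*) reached at most 3572. The oligodendrocyte precursor (*Bcas1*), microglia (*Csf1r*), endothelial (*Flt1*) and leptomeningeal (*Igf2*) lists summed to at most 8001 in any library. All 6 leptomeningeal markers had log2 fold changes above 0 (median 0.24), with sums of 3603 to 4276 in *Shank3* TG and 3179 to 3661 in WT, and 2 of them had an unadjusted p under 0.05 in limma's test (2.01% of all tested genes). The oligodendrocyte precursor list had a median of -0.04, and of its 6 genes only *Bcas1*, at -0.45 on the log2 scale, did not overlap between the genotypes (6.02% of all tested genes). The other genes of that list lay between -0.10 and 0.14, and *Bcas1* lay near the median of the mature oligodendrocyte markers given below. Choroid plexus markers reached 551 in TG-3, of which *Ttr* made up 445, against at most 206 elsewhere. Of its 5 genes 3 were above and 2 below 0, and 1, *Ttr*, had an unadjusted p under 0.05 (2.01% of all tested genes). Its log2 fold change was 2.42 (standard error 0.97), its genotypes overlapped, and its unadjusted p in limma's test was 0.0382, or 0.000518 with the block. Olfactory bulb markers (*Cdhr1*) reached 1549 in TG-2 against at most 424 elsewhere. The 8 mature oligodendrocyte markers (*Mbp* the most abundant) summed to between 75480 and 98062 in *Shank3* TG and between 112379 and 114466 in WT, and their median log2 fold change was -0.44. Of these 8 markers 7 had an unadjusted p under 0.05 in limma's test (2.01% of all tested genes). With the replicate number as block term 8 did (4.98%), and 6 did not overlap (6.02%). In these bulk samples, fewer cells of a type and less RNA per cell cannot be told apart, and what such shifts contribute to the values below was not tested.

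None of the 8 adhesion genes passed the test between the genotypes. Their log2 fold changes lay between -0.08 and 0.09, with a median of 0.04, 6 above and 2 below 0, beside a median absolute value of 0.0706 over all tested genes and 0.0553 over these 8. The share of all tested genes with an absolute log2 fold change of at most 0.1 was 62.0%, so values this small are common in the series. In limma's test (genotype alone, log2 of the normalized count + 1) the count of members past an adjusted p of 0.05 was 0, and 0 also at an unadjusted p under 0.05. Over all tested genes these shares were 0% and 2.01%. That count of members was also 0 when replicate number was a block (4.98% of all tested genes) and under the empirical null, which rescales the test by the observed width of all z-scores (7.27%). Past an adjusted p of 0.05 these 2 fits held 0.00598% and 0.156% of all tested genes, and no member. The smallest unadjusted p among the 8 genes was 0.284 in limma's test, 0.138 with the block and 0.143 with the empirical null. A test that misses the threshold does not show equal levels, and the intervals set what these libraries allow: over the 8 genes the 95% intervals of the fold ran from 0.777 to 1.37. The 95% interval of *Shank3* itself ran from 1.92 to 2.67 and did not meet that range.

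**Figure D1:**
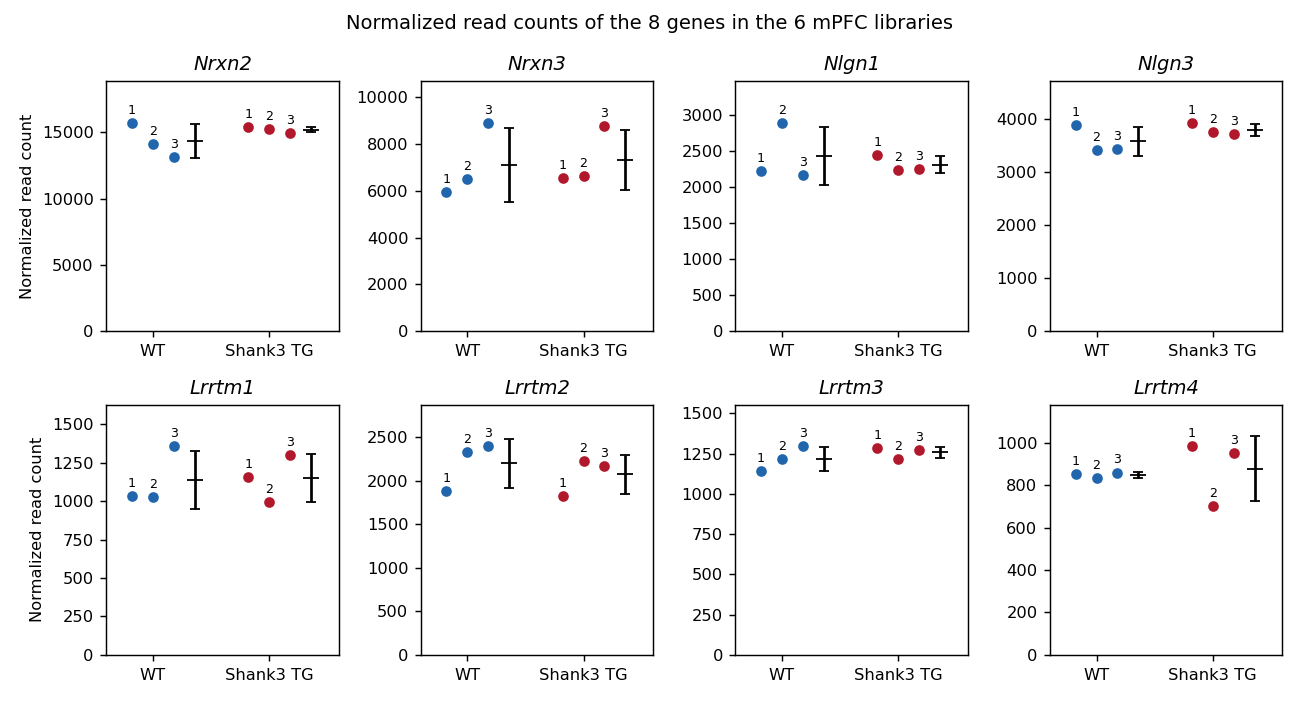
Normalized read counts (vertical axes, from 0) of the 8 genes in the WT (blue) and *Shank3* TG (red) mPFC libraries. Each point is 1 library and its digit the replicate number, black bars are mean ± SD (n = 3), and in every panel the 2 genotypes overlap.

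On the axon side, the 2 neurexin genes had the highest counts of the set and differed in which libraries stood out. *Nrxn2* (ENSMUSG00000033768) lies on chromosome 19 from 6418731 to 6544169, a span of 125.4 kb. It had 15398, 15232 and 14976 normalized counts across the TG pools, against 15723, 14098 and 13165 across the WT pools. The 3 *Shank3* TG libraries were close together, and WT-1 was higher than all of them while WT-2 and WT-3 were lower. The TG mean was 15202 ± 213 (SD, n = 3) and the WT mean 14329 ± 1294. Their log2 fold change was 0.09 (standard error 0.08), or 6.37%. The exact two-sided permutation p was 0.4, where 3 libraries against 3 cannot go below 0.1. Without WT-1 the log2 fold change was 0.16 and without WT-3 it was 0.03.

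*Nrxn3* (ENSMUSG00000066392, chromosome 12 from 88722876 to 90334935) is the longest gene of the set, with a span of 1612.1 kb. Its normalized counts were 6563, 6612 and 8780 in *Shank3* TG and 5943, 6487 and 8907 in WT. TG-3 and WT-3 were the 2 highest libraries, well apart from the rest in both genotypes. The genotype means were 7318 ± 1266 and 7112 ± 1578 (SD, n = 3), and their log2 fold change of 0.05 (standard error 0.17) had the widest interval of the 8 genes, from -0.35 to 0.45. The exact two-sided permutation p was 0.7. The sign depended on single libraries, with -0.09 without TG-3, -0.07 without WT-1, -0.01 without WT-2 and 0.22 without WT-3. With the block, where that shared shift is taken out, the standard error was 0.06 and the unadjusted p in limma's test 0.393.

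On the dendrite side, *Nlgn1* (ENSMUSG00000063887, chromosome 3 from 25426215 to 26332460) encodes neuroligin-1, found mostly at excitatory synapses. It had 2448, 2243 and 2256 normalized counts across the TG pools, against 2230, 2899 and 2172 across the WT pools. WT-2 was the highest library, and the other 5 lay between 2172 and 2448. The log2 fold change was -0.06 (standard error 0.12) with WT-2 and 0.07 without it, so that leaving out 1 library turned its sign. The exact two-sided permutation p was 1 with all libraries.

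*Nlgn3* (ENSMUSG00000031302) lies on chromosome X from 101299168 to 101325963, so that each male carries 1 copy, and spans 26.8 kb. It had 3925, 3743 and 3719 normalized counts across the TG pools, against 3884, 3411 and 3426 across the WT pools. WT-2 and WT-3 were the 2 lowest libraries and WT-1 lay among those of *Shank3* TG. The means were 3796 ± 113 and 3574 ± 269 (SD, n = 3), with a log2 fold change of 0.09 (standard error 0.08) that stayed between 0.06 and 0.15 whichever library was omitted. *Nlgn3* had the smallest unadjusted p of the set in limma's test (0.284), and the exact two-sided permutation p was 0.3. At all 3 replicate numbers the TG pool exceeded the WT pool, by 0.02, 0.13 and 0.12 on the log2 scale. How many of all tested genes keep the same sign at all 3 numbers was not counted, so this is a description only. Transcripts of *Nlgn3* share 41.9% of their 31-base words with those of another annotated gene, most of all with *Gm21986*, which overlaps it on the same strand and was not analysed here, so its counts depend on how such reads were assigned.

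The 4 LRRTM genes encode neurexin-binding receptors of excitatory synapses, and heparan sulfate chains are also ligands of LRRTMs such as LRRTM4. *Lrrtm1* (ENSMUSG00000060780, chromosome 6 from 77242689 to 77257791) had 1157, 995 and 1302 normalized counts across the TG pools, against 1035, 1026 and 1356 across the WT pools. As for *Nrxn3*, TG-3 and WT-3 were the highest libraries. The means of 1151 ± 154 and 1139 ± 188 (SD, n = 3) gave a log2 fold change of 0.02 (standard error 0.14), the smallest of the 8, with an interval from -0.31 to 0.35. It was -0.07 without TG-3, -0.04 without WT-1, -0.05 without WT-2 and 0.15 without WT-3.

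*Lrrtm2* (ENSMUSG00000071862, chromosome 18 from 35209003 to 35215024) had 1819, 2229 and 2172 normalized counts across the TG pools, against 1878, 2327 and 2392 across the WT pools. Here the libraries numbered 1 were the 2 lowest, a pattern found in 8.29% of all tested genes. At every replicate number the *Shank3* TG library was below its WT counterpart, by 0.05, 0.06 and 0.14 on the log2 scale, again a description only. The log2 fold change was -0.08 (standard error 0.12, interval -0.36 to 0.20), and 0.01 without TG-1. The unadjusted p was 0.516 in limma's test and 0.177 with the block.

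*Lrrtm3* (ENSMUSG00000042846, chromosome 10 from 63928472 to 64090277) was the steadiest gene, with 1285, 1216 and 1271 normalized counts across the TG pools, against 1143, 1217 and 1295 across the WT pools. WT-1 was the lowest library and WT-3 the highest, and the *Shank3* TG libraries lay between them. Its coefficient of variation over the 6 libraries was 4.64%, beside a median of 11.2% over all tested genes. The log2 fold change was 0.05 (standard error 0.08, interval -0.14 to 0.23).

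*Lrrtm4* (ENSMUSG00000052581, chromosome 6 from 80018877 to 80810143) had 983, 701 and 951 normalized counts across the TG pools, against 853, 834 and 860 across the WT pools. Most of the spread lay in *Shank3* TG, where TG-2 was the lowest of the 6 libraries and TG-1 the highest, and the SDs were 154 in *Shank3* TG and 13.4 in WT. TG-2 was also the library with the highest sum of olfactory bulb markers, and the part of that in its *Lrrtm4* value was not tested. The log2 fold change was 0.03 (standard error 0.13), and 0.19 without TG-2, -0.06 without TG-1 and -0.03 without TG-3. In *Lrrtm4*, 24.5% of the 31-base words of its transcripts were shared with other annotated genes, in either orientation, most of all with *Gm4409* on the opposite strand. That share was between 0.28% and 1.07% for the other 3 LRRTM genes and between 3.30% and 9.05% for *Nrxn2*, *Nrxn3* and *Nlgn1*. No such word was shared between any of the 8 members.

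**Figure D2:**
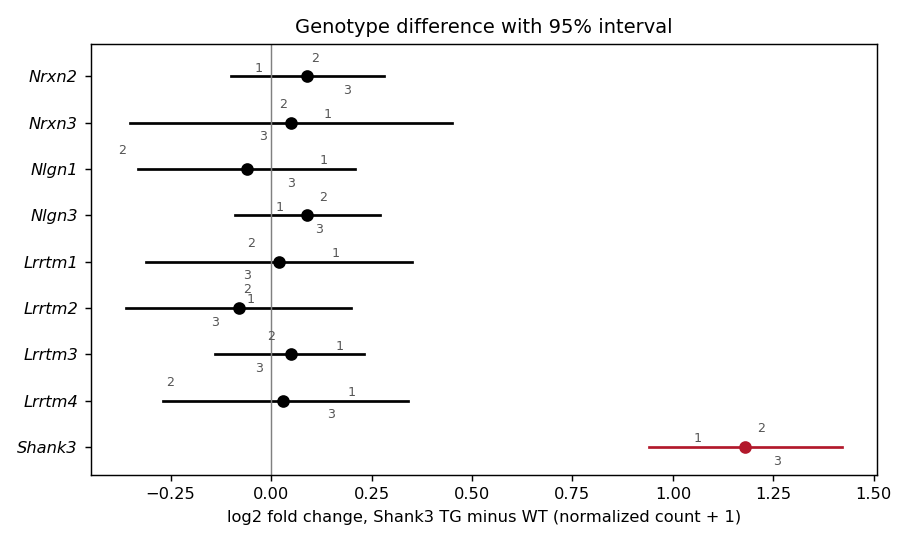
Log2 fold change of *Shank3* TG minus WT (horizontal axis, log2 of normalized count + 1) for the 8 genes (black) and *Shank3* (red), with limma's 95% interval (lines). Small digits give the difference between the TG and WT libraries of the same replicate number. The 8 intervals include 0, and that of *Shank3* runs from 0.94 to 1.42.

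Compared per length, the neurexins were the most abundant of the 8 genes. Levels were divided by the longest annotated transcript of each gene, and the order was the same when the union of all exons was used. *Nrxn2* had 2215 ± 144 normalized counts per kilobase (SD, n = 6 libraries) and *Nrxn3* 911 ± 162. Neither overlapped its neighbour in the order over the 6 libraries. *Nlgn3* (431 ± 25.9), *Lrrtm1* (387 ± 51.9), *Lrrtm2* (377 ± 41.6) and *Lrrtm3* (318 ± 14.7) followed. Neighbours in this order overlapped over the 6 libraries, but *Lrrtm3* (293 to 332) lay below every library of *Nlgn3* (399 to 460) and of *Lrrtm1* (336 to 458). *Nlgn1* (201 ± 23.2) and *Lrrtm4* (195 ± 22.4) were lowest, did not overlap *Lrrtm3* and overlapped each other. The normalized count of *Nrxn3* divided by that of *Nrxn2* was 0.426, 0.434 and 0.586 in *Shank3* TG and 0.378, 0.460 and 0.677 in WT, with the libraries numbered 3 highest in both genotypes. For *Nlgn1* over *Nlgn3* the ratio was 0.624, 0.599 and 0.606 in *Shank3* TG and 0.574, 0.850 and 0.634 in WT, where WT-2 was the highest. Both ratios overlapped between the genotypes and were formed after the values had been seen, so no test was made.

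**Figure D3:**
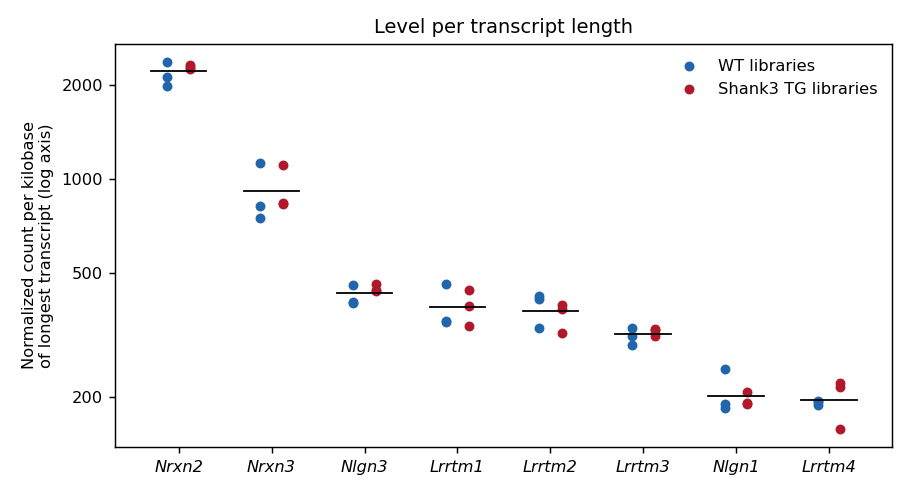
Normalized count per kilobase of the longest annotated transcript (vertical axis, logarithmic) for the 8 genes in order of their mean (black line, n = 6 libraries). Points are WT (blue) and *Shank3* TG (red) libraries, and *Nrxn2* and *Nrxn3* lie above all others.

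Replicate number accounted for more of the variation than genotype in every member. For each gene the squared deviations of its 6 log2 values were split between genotype (1 degree of freedom), replicate number (2) and a remainder (2). The share of the replicate number was larger than that of genotype for 8 of 8 members, as it was for 83.5% of all tested genes, so the members did not stand apart from the series in this. The median share over the members was 57.6% for the number and 6.08% for genotype, against 61.2% and 6.67% over all tested genes. *Nrxn3*, *Lrrtm1* and *Lrrtm2* had the largest shares for the number, at 96.5%, 91.4% and 90.5%. *Nlgn3* and *Nrxn2* had the largest shares for genotype, at 31.2% and 25.8%. *Nlgn1* and *Lrrtm3* had remainders of 60.5% and 49.1%, which neither label accounted for.

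**Figure D4:**
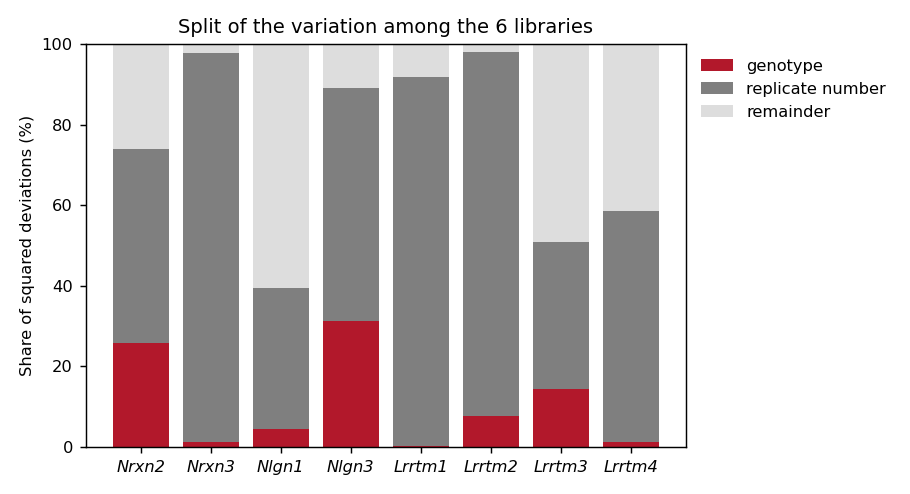
Share of the squared deviations of the log2 values over the 6 libraries (vertical axis, %) that falls to genotype (red), replicate number (dark grey) and the remainder (light grey) for each gene. The dark grey part exceeds the red part in all 8 bars.

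TG-3 and WT-3 lay above the other 4 libraries for 2 of the 8 members, *Nrxn3* (1.38-fold) and *Lrrtm1* (1.26-fold), and below them for none. Over all tested genes this was the case for 20.3% and 20.6%. The excitatory neuron list also summed higher in these libraries, to between 181352 and 188092 normalized counts against at most 172638 in the others, with 4 of its 7 genes above all other libraries and 0 below. The astrocyte list summed lower there, to at most 26759 against at least 27544, with 4 of 6 genes below and 0 above. The microglia list did too (at most 6055 against at least 6565), with 3 of 6 genes below and 1 above. The inhibitory neuron list had 2 genes above and 2 below, and its sums overlapped (19428 to 20062 against 19930 to 20133). The striatal list had 1 gene above and 1 below. The endothelial list had 1 gene above and 2 below, although its sum was higher there (7493 to 8001 against at most 7222), and *Pecam1*, an endothelial marker named after its values were seen, was 3.34-fold higher in these libraries. The part of all these shifts in *Nrxn3* and *Lrrtm1* was not tested. With TG-3 and WT-3 both left out, the log2 fold changes of *Nrxn3* and *Lrrtm1* were 0.09 and 0.06. The genes most like each member over the 6 libraries, out of 13454 genes averaging 50 normalized counts or more, were *Kdr* for *Nrxn2*, *Zmat2* for *Nrxn3*, *Zfp459* for *Nlgn1*, *Cavin1* for *Nlgn3*, *Usmg5* for *Lrrtm1*, *B3galt1* for *Lrrtm2*, *Sertad4* for *Lrrtm3* and *Zfand2b* for *Lrrtm4*. Pearson's r of the log2 values lay between 0.982 and 0.999. These are the highest of many correlations over 6 libraries that share genotype and replicate number, and they are given as a description.

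Of the LRRTM genes, 3 lie inside genes for alpha-catenins, which link cadherins to actin, each on the strand opposite to its host. *Lrrtm1* lies in *Ctnna2*, *Lrrtm2* in *Ctnna1* and *Lrrtm3* in *Ctnna3*. The exons of *Lrrtm1* and *Lrrtm3* were wholly intronic in their hosts, and 95 bases of *Lrrtm2* overlapped exons of *Ctnna1*. *Ctnna2* had 4285, 4117 and 3628 normalized counts across the TG pools, against 4084, 4539 and 3517 across the WT pools, lowest in TG-3 and WT-3, where *Lrrtm1* was highest. Its log2 fold change was -0.01 (standard error 0.11). For *Ctnna1* it was -0.03 (standard error 0.08). *Ctnna3* was low, between 37.1 and 64.2 normalized counts, with -0.39 (standard error 0.22) and an unadjusted p of 0.11 in limma's test. With libraries left out the log2 fold change of *Ctnna3* ran from -0.56 to -0.20 and that of *Ctnna1* from -0.09 to -0.00. None of the 3 host genes passed the test, and in all of them the genotypes overlapped. Under the empirical null the unadjusted p of *Ctnna3* was 0.0287, a level under 0.05 reached by 7.27% of all tested genes, and its adjusted p was 0.572.

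The rest of the system was read from 106 further genes in 7 lists, the hosts included. None had an adjusted p under 0.05 in limma's test, and 1 had an unadjusted p under 0.05, beside 2.01% of all tested genes, so the count does not exceed the background. The median log2 fold change was 0.00, as over all tested genes, with 56 genes above and 50 below 0. Groups without overlap were found for 2 of the 106 genes, *Cbln2* and *Lhfpl4*, both higher in *Shank3* TG, beside 6.02% of all tested genes in either direction and 2.91% in this one. *Lhfpl4*, whose protein associates with GABA-A receptors at inhibitory synapses, is named for this reason after its values were seen, and its log2 fold change was 0.05 (standard error 0.06).

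Among 16 genes for neurexin ligands, the median log2 fold change was -0.02, and 5 were above and 11 below 0. *Cbln2* encodes a cerebellin, a secreted bridge between neurexins and glutamate receptor delta proteins. It had 1621, 1477 and 1390 normalized counts across the TG pools, against 1269, 1368 and 1263 across the WT pools. Each *Shank3* TG library was above all WT libraries, the closest being TG-3 and WT-2. Its log2 fold change of 0.20 (standard error 0.09) had, in limma's test, an unadjusted p of 0.0474 and an adjusted p of 1. The exact two-sided permutation p was 0.1, the smallest possible here, and without TG-1 the log2 fold change was 0.14. The unadjusted p in limma's test ranged from 0.0298 to 0.181 with each library left out in turn. *Sparcl1* (hevin), a matricellular protein that is mainly astrocytic and the most abundant gene of this list, was at -0.09 on the log2 scale (standard error 0.08), at -0.02 with quantile normalization and at -0.05 without TG-3.

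The 12 intracellular neurexin partners had log2 fold changes between -0.13 (*Apba3*) and 0.12 (*Cask*), and their most abundant gene was *Syt1*, the calcium sensor of vesicle release, at -0.03 (standard error 0.19). *Syt1* had 66407 and 69688 normalized counts in TG-3 and WT-3, with no other library over 50548, the direction seen for *Nrxn3*. The 15 postsynaptic scaffold partners of neuroligins ranged from -0.11 (*Magi2*) to 0.07. *Dlg4*, which encodes PSD-95, was both their most abundant gene and the upper end, with 26201, 26402 and 22763 normalized counts across the TG pools, against 26763, 24801 and 20472 across the WT pools. It was lowest in TG-3 and WT-3, and its difference of 0.07 on the log2 scale (standard error 0.12) became -0.04 without WT-3.

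The 13 genes of extracellular regulators and heparan sulfate, which include the neuroligin-binding MDGAs and the glypicans and syndecans, had a median of 0.03, with 10 above and 3 below 0. *Sdc3*, a syndecan, was the most abundant of them, at 0.03 (standard error 0.07). The 15 genes for neurexin splicing and surface cleavage had a median of -0.01. *Rbfox3*, a neuronal splicing regulator and the most abundant of them, had 8295, 7394 and 13605 normalized counts across the TG pools, against 8282, 7703 and 15068 across the WT pools. It was 1.81-fold higher in the libraries numbered 3 than in the others, and its log2 fold change between the genotypes was -0.07 (standard error 0.30). The 32 other synaptic adhesion genes had a median of 0.02, between -0.18 (*Adgrl3*) and 0.19 (*Tenm4*). *Clstn1*, the most abundant of them and a calsyntenin, was at 0.05 on the log2 scale (standard error 0.08).

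With the replicate number as a block, 4 of the 106 genes had an unadjusted p under 0.05 in limma's test, beside 4.98% of all tested genes. They were *Cbln2* (0.019), *Ptprd* (0.0276), *Tenm4* (0.0301) and *Adgrl3* (0.0425), named after their values were seen, and their adjusted p-values lay between 0.870 and 0.996. *Ptprd*, a presynaptic receptor phosphatase, and *Adgrl3*, a latrophilin, had log2 fold changes of -0.16 and -0.18, and *Tenm4*, a teneurin, of 0.19. TG-3 and WT-3 lay above the other libraries for 26 of the 106 genes and below them for 24. By list these counts were 11 and 1 for the other adhesion genes, 5 and 5 for splicing and cleavage, 4 and 2 for the ligands, 3 and 6 for the scaffold partners, 2 and 6 for the extracellular regulators, 1 and 3 for the intracellular partners and 0 and 1 for the hosts (all tested genes 20.3% and 20.6%).

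**Figure D5:**
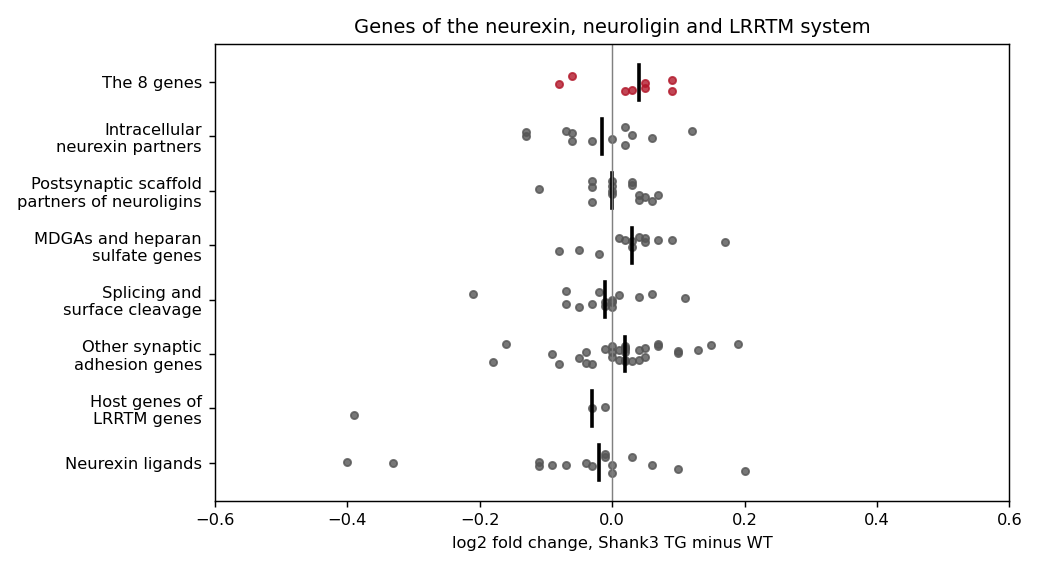
Log2 fold change of *Shank3* TG minus WT (horizontal axis) for the 8 genes (red) and the 106 genes of the 7 lists (grey), 1 point per gene, with the median of each row as a black bar and a small vertical scatter for legibility. The medians lie between -0.03 and 0.04.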

How the data were processed

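Per the methods and the submitters' processing notes, the authors quantified stranded mRNA libraries with Salmon 0.9.1 against GRCm38, correcting for GC bias, summed transcripts to genes with tximport and divided by the size factors of DESeq2 1.19.11. This signal (normalized read counts) was deposited for 18254 genes. Values do not fall on whole reads (no more than 23.2% of low values came within 0.02 of a multiple of any step), so reads were not recovered and no counting interval was given. Positions came from GENCODE M21, which held 18215 of the genes. Calculations used R 4.3.3, limma 3.58.1 and scipy 1.17.1.

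Genes averaging 5 or more (16714) were fitted on log2(normalized count + 1) with genotype alone (eBayes with a trend), two-sided, with Benjamini-Hochberg adjustment over all of them and a threshold of 0.05. The fits were run on simulated data with independent noise in each library, which checked recovery of the log2 change only. That noise held no shift shared by libraries of the same number, so the p-values were not checked. Replicate numbers were taken to pair libraries because deviations from the genotype means correlated across genes, at 0.30, 0.33 and 0.62 for the numbers 1, 2 and 3, all over 0.1. TG-1 with WT-2 (0.27) and TG-2 with WT-1 (0.23) were nearly as high, so only number 3 stood clearly apart. The empirical null divided z-scores by their width. Nothing says whether pools were prepared on separate days. The p-values set the genotype difference against the spread between these pools, not between single mice.

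Named were the 8 members, *Shank3*, the host genes, the most abundant gene of each list, listed genes at an unadjusted p under 0.05 and the gene most correlated with each member. The genes at the ends of a list's range, those that passed only with the block and others said to be so were named after their values were seen. The members were defined by gene family and not by a value, but they and the lists were chosen with earlier results of these data known. Alternatives were other pseudocounts, filters, scalings and eBayes options, the block, the empirical null and each library left out. Alternatives for the lists and named non-members were added after the data were seen.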

Additional observations from a re-analysis of the deposited data

How the results depend on the processing

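With libraries left out (7 settings), 11 of 56 member values turned direction, in 5 of the 8 members. None turned under the other pseudocounts or scalings. The filters, the eBayes options, the block and the empirical null leave these fold changes as they are by construction. No member reached an unadjusted p under 0.05 under any of the 17 settings. The ranges with libraries left out were 0.03 to 0.16 for *Nrxn2*, -0.09 to 0.22 for *Nrxn3*, -0.14 to 0.07 for *Nlgn1*, 0.06 to 0.15 for *Nlgn3*, -0.07 to 0.15 for *Lrrtm1*, -0.19 to 0.01 for *Lrrtm2*, 0.00 to 0.09 for *Lrrtm3* and -0.06 to 0.19 for *Lrrtm4*. For *Lrrtm4* the log2 fold change was -0.02 without both libraries numbered 3. The count of all tested genes at an adjusted p under 0.05, 0 with genotype alone, was 1 with the robust option, 1 with the replicate block, 26 with the empirical null and 0 to 1 with libraries left out (1 without replicate 3 of both genotypes or of WT). The count of listed genes at an unadjusted p under 0.05, 1 with genotype alone, was 0 without a trend, 4 with the block, 3 with the empirical null and 1 to 2 with libraries left out. *Shank3* passed the threshold with the robust option (adjusted p in limma's test 0.0307), the block, the empirical null, without replicate 3 of both genotypes and without WT-3. With the block, *Ptprd*, *Adgrl3* and *Tenm4* also came under an unadjusted p of 0.05, as *Ctnna3* and *Ptprd* did with the empirical null. No member changed side of either threshold.

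With quantile normalization *Ctnna2* and *Syt1* were at 0.01. With libraries left out the ranges were -0.11 to 0.08 for *Ctnna2*, -0.19 to 0.15 for *Syt1*, -0.33 to 0.24 for *Rbfox3*, -0.04 to 0.15 for *Dlg4*, -0.02 to 0.09 for *Clstn1*, -0.01 to 0.11 for *Sdc3* and -0.12 to -0.05 for *Sparcl1*. The cause of these turns was not tested. With 3 pools a genotype and normalized values without read counts, depth per gene is unknown, and the intervals give the differences these libraries leave possible.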
